A study of Homo sapiens with 8 samples.

Results

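Hepcidin, the liver hormone that limits iron entry into blood, is controlled by bone morphogenetic protein (BMP) signalling through SMAD proteins, and 10 genes of this circuit were followed across the 4 groups of the series. They were taken by symbol from the gene table of all libraries: HAMP, which encodes hepcidin; ID1, ID2, ID3, SMAD6, SMAD7 and BAMBI, which are BMP-SMAD response genes; and TFR2, HFE and TMPRSS6, which set the signal that reaches HAMP. All 10 were found among the 26716 genes of the table, and all 10 passed the filter on low counts. The cells were HepG2, an established human liver tumour line, a liver-derived model. The question was what a mimic of the microRNA miR-552-3p does to transcript levels. It was also asked whether that depends on importin8 (gene IPO8), a nuclear import receptor. Each of the 8 libraries received a mimic or control mimic at 1 nM and an siRNA or control siRNA at 30 nM for 72 h. The group NC received both controls. The group miR-552-3p (the mimic alone) received mimic and control siRNA, siIPO8-NC (the siRNA alone) received importin8 siRNA and control mimic, and siIPO8-miR-552-3p received both active agents. Each group had 2 libraries. The labels name no separate cultures, so the p-values reflect the spread among these particular samples, which may be technical.

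In hepatocytes BMP ligands bind type I and type II receptors together with the co-receptor hemojuvelin, the receptors phosphorylate SMAD1, SMAD5 and SMAD9, and these enter the nucleus with SMAD4 to activate HAMP and the ID genes. SMAD6, SMAD7 and BAMBI are induced by the same signal and restrain it. TFR2 and HFE pass on the level of iron-loaded transferrin, and the membrane protease TMPRSS6 cleaves hemojuvelin and lowers hepcidin. Hepatocytes of the liver are the main source of hepcidin, which removes the iron exporter ferroportin from cell surfaces. An inflammatory arm reaches HAMP through interleukin 6 and STAT3.

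The mature miRNA is shown because its seed was searched for in the members. RefSeq (GRCh38.p14) places hsa-miR-552-3p on the minus strand of chromosome 1, from 34669614 to 34669634, and the capitals mark bases 2 to 8, the seed.
hsa-miR-552-3p: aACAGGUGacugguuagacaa
The complement of that seed, CACCTGT, occurred in the longest annotated 3′ UTR of 1 of the 10 members. This was HFE, with 1 match in a 3′ UTR of 4120 bases, while 3245 of 19552 genes (16.6%) held at least 1 match. The HFE match, in capitals with 10 bases on either side, is shown as the member match of the mimic's seed.
HFE: atggaagaggCACCTGTcccagaaaaa
A match is a description of the letters and not a shown site.

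The libraries held 21608563 to 22102373 expected counts, and levels below are in CPM, counts scaled to a common depth and adjusted for library composition. On this scale 4 of 6 common reference genes were called higher and 0 lower with either treatment alone against NC. Of all genes 28.9% were called higher with the mimic alone and 25.4% with the siRNA alone. ACTB, a reference gene, had means of 2073 CPM in NC, 4592 with the mimic alone, 3974 with the siRNA alone and 4686 with both. IPO8 stood at 34.6 and 33.3 CPM in NC, 25.4 and 24.6 with the mimic alone, 11.3 and 11.5 with the siRNA alone and 7.63 and 8.31 with both. The targeted transcript was therefore lower in all 4 libraries given its siRNA than in the other 4. All 12 hepatocyte markers exceeded 1 CPM in every library, and their summed level was 51880 and 52390 CPM in miR-552-3p and 63680 to 80080 CPM in the other 6 libraries. That sum mixes directions. With the mimic and control siRNA 8 of the 12 were called lower and 2 higher, against 29.5% and 28.9% of all genes. With the importin8 siRNA and control mimic 3 were called lower and 7 higher, against 21.6% and 25.4%. Among mimic libraries the importin8 siRNA called 0 lower and 10 higher, against 16.2% and 17.3%. Among importin8 siRNA libraries the mimic called 4 lower and 3 higher, against 16.7% and 15%. The difference between the mimic effects was called negative for 2 and positive for 7, against 17.1% and 14.2%. TTR had a mean of 277 CPM in NC, 55.5 with the mimic alone, 627 with the siRNA alone and 272 with both. FGB had 28.8, 274, 184 and 390 CPM. Of the fibroblast markers 1 or 2 of 8 exceeded 1 CPM, with sums of 9.10 to 20.01 CPM. DCN and LUM were each at 0 in 7 of 8 libraries, whereas COL1A1 and PDGFRB had counts in all 8 and differed in opposite directions. COL1A1, at a mean of 0.31 CPM in NC, had log2 fold changes of 3.432 with the mimic alone and 2.787 with the siRNA alone. PDGFRB had -1.612 and -1.177 in the same comparisons, and both genes were called in each. Of the endothelial and blood markers 4 or 5 of 9 exceeded 1 CPM. Their sum was 88.9 and 96.7 CPM in NC, 162 and 154 with the mimic alone, 103 and 79.7 with the siRNA alone and 116 and 111 with both, but its genes differed in opposite directions. PECAM1 had a mean of 70.4 CPM in NC, 27.5 with the mimic alone, 15.4 with the siRNA alone and 19.8 with both, whereas CD68 had 6.66, 117, 68.8 and 81.6 CPM. CDH5 was at 0.0669 CPM in NC and 2.87 with the siRNA alone. The stellate cell markers summed to 81.1 to 90.5 CPM in the 4 libraries without importin8 siRNA and to 56.4 to 64.5 CPM in the 4 with it. ACTA2, the marker with most of that sum, was called lower with the siRNA, by a log2 fold change of -0.57 with control mimic and -0.51 with the mimic. The part of these markers in the results below was not tested. The NC libraries differed from each other most, with a chi-square per degree of freedom of 10.6 against 4.54 to 7.73 in the other groups, and HAMP was among the genes that differed between them.

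Either treatment alone moved HAMP and the ID genes up and BAMBI and TFR2 down. With control siRNA, the mimic changed all 10 members, raising HAMP, ID1, ID2, ID3 and SMAD6 and lowering SMAD7, BAMBI, TFR2, HFE and TMPRSS6. Genes were called at a Benjamini-Hochberg adjusted p under 0.05 over the 17715 genes tested (edgeR quasi-likelihood test), and 28.9% of these were called higher and 29.5% lower in the same comparison. The 5 higher and 5 lower members are read against those shares. DESeq2 called 7 of the 10, leaving out SMAD6, SMAD7 and HFE. The members' median log2 fold change was 0.16, against -0.01 for all genes tested.

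The importin8 siRNA with control mimic called 4 members higher (HAMP, ID1, ID2 and ID3) and 3 lower (BAMBI, TFR2 and HFE), where 25.4% of genes were called higher and 21.6% lower. This comparison and the mimic comparison share the NC libraries, so their values are given side by side and not compared with each other. The members' median log2 fold change was 0.09, against 0.00 for all genes. Among importin8 siRNA libraries, the mimic called 1 member higher (ID2) and 4 lower (ID1, SMAD7, TFR2 and TMPRSS6), where 15% of genes were called higher and 16.7% lower, so the share of members called higher was near that of all genes. The median was -0.20 here, against -0.01 for all genes. Leaving out siIPO8-NC replicate 2, siIPO8-miR-552-3p replicate 1 or siIPO8-miR-552-3p replicate 2 reduced those 5 calls to 2, and leaving out either miR-552-3p library reduced them to 3.

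Among mimic libraries, the importin8 siRNA called 5 members higher (HAMP, ID1, ID2, TFR2 and TMPRSS6) and 2 lower (SMAD6 and HFE), where 17.3% of genes were called higher and 16.2% lower. The median was 0.30, against -0.01 for all genes. Those 7 calls became 3 without miR-552-3p replicate 1 or without siIPO8-miR-552-3p replicate 2, and 4 without miR-552-3p replicate 2. The difference between the mimic effects, importin8 siRNA minus control siRNA, was called for 7 members. It was negative for HAMP, ID1, ID2 and ID3 and positive for BAMBI, TFR2 and TMPRSS6, where 14.2% of genes were called positive and 17.1% negative. The median difference was -0.27, against -0.02 for all genes. In these bulk libraries fewer cells that express a gene and less RNA of it per cell cannot be told apart.

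**Figure D1:**
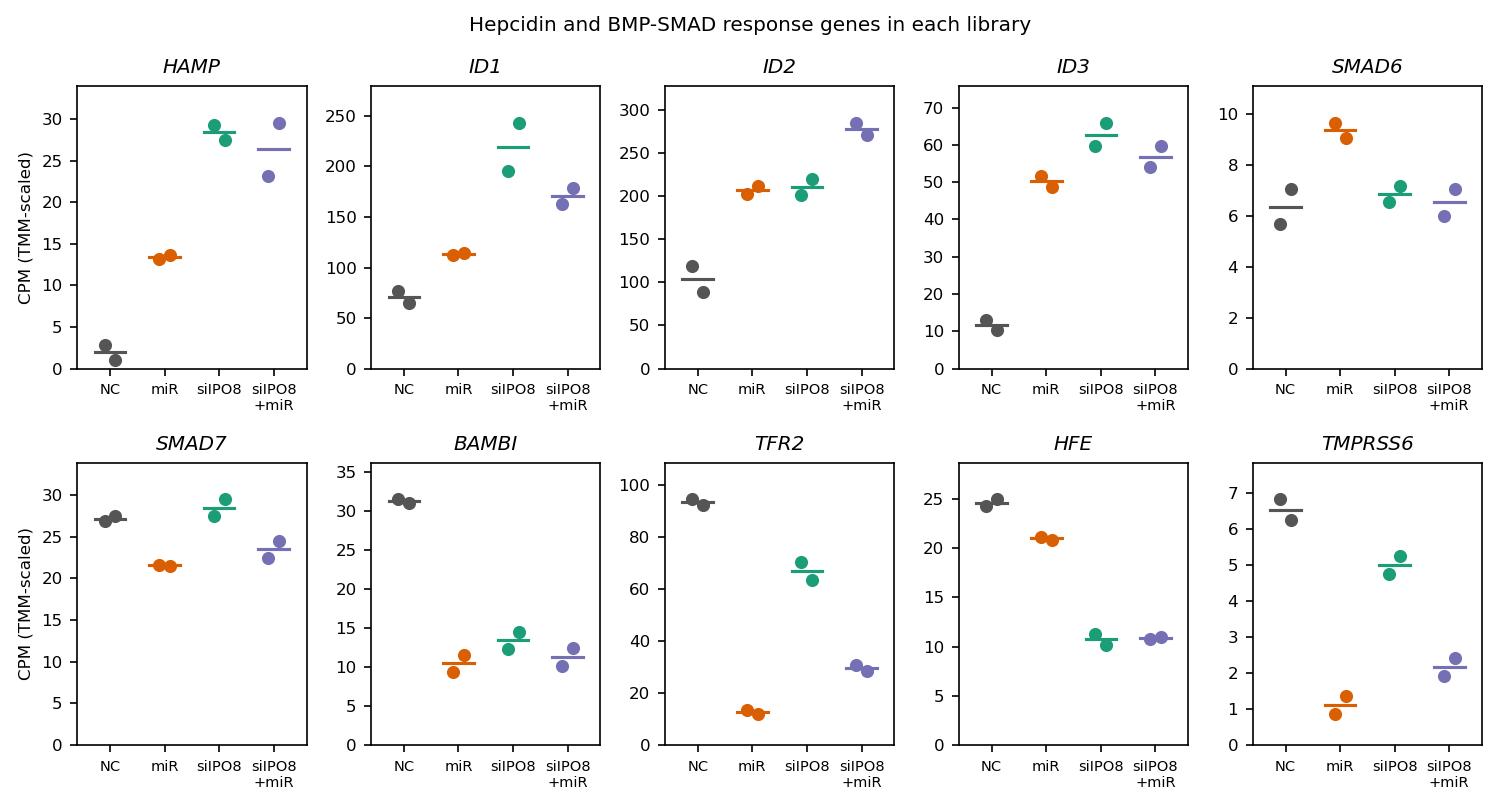
Level of each of the 10 members (CPM, linear axis from 0) in each library, with points for the 2 libraries of a group and a line for their mean; miR stands for miR-552-3p, siIPO8 for siIPO8-NC and siIPO8 +miR for siIPO8-miR-552-3p. HAMP is at 1.05 and 2.82 CPM in NC and between 13.2 and 29.6 CPM in the other 6 libraries, whereas TFR2 is at 92.2 and 94.5 CPM in NC and at 11.96 and 13.3 CPM in miR-552-3p.

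HAMP lies on chromosome 19 from 35280716 to 35285143 on the plus strand (GRCh38, GENCODE 29, as are the positions below). Its transcript stood at 2.82 and 1.05 CPM in NC, 13.2 and 13.7 with the mimic alone, 29.4 and 27.5 with the siRNA alone and 23.2 and 29.6 with both. Both NC libraries were the lowest, the miR-552-3p libraries came next, and the libraries of both importin8 siRNA groups were highest and overlapped each other. The group means were 1.93 ± 1.25, 13.4 ± 0.368, 28.4 ± 1.30 and 26.4 ± 4.48 CPM (SD, n = 2), in that order of groups. The mimic with control siRNA raised HAMP by a log2 fold change of 2.79 (SE 0.34, edgeR adjusted p = 0.00038), a 6.93-fold rise. The importin8 siRNA with control mimic raised it by 3.87 (SE 0.32, edgeR adjusted p = 9.8e-05), a 14.7-fold rise.

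The size of both changes rested on which NC library was used, since HAMP had 62.67 expected counts in NC replicate 1 and 24 in NC replicate 2. Without NC replicate 1 the log2 fold changes of HAMP were 3.67 for the mimic and 4.74 for the siRNA, and without NC replicate 2 they were 2.24 and 3.33; the direction and the call held each time. With importin8 siRNA present, the mimic effect on HAMP was -0.11 on the log2 scale (SE 0.24, edgeR adjusted p = 0.79), with overlapping libraries. The difference between the mimic effects on HAMP was -2.90 (SE 0.42, edgeR adjusted p = 0.0025), and it was -3.76 without NC replicate 1 and -2.35 without NC replicate 2. Among mimic libraries, the importin8 siRNA raised HAMP by 0.98 (SE 0.26, edgeR adjusted p = 0.027). That call was lost without either miR-552-3p library (adjusted p = 0.13 and 0.11), without either siIPO8-NC library (0.056 and 0.057), without siIPO8-miR-552-3p replicate 2 (0.11) and with no filter on low counts (0.062).

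The HAMP promoter is printed because it holds the motif letters of both the BMP and the interleukin 6 arm. RefSeq (GRCh38.p14) gives the 120 bases before the annotated start as chr19:35282408-35282527 on the plus strand, and the capitals mark GGCGCC, the core of the BMP response element, and a match to TTCNNNGAA, the STAT site.
HAMP: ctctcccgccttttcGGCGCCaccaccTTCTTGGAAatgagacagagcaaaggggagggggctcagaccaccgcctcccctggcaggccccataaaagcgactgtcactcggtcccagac
GGCGCC lay at -105 to -100 and the STAT match at -93 to -85 from the start. BAMBI is shown as the other member with GGCGCC, at chr10:28677271-28677520 on the plus strand, where the 3 matches in capitals began at -209, -196 and -181.
BAMBI: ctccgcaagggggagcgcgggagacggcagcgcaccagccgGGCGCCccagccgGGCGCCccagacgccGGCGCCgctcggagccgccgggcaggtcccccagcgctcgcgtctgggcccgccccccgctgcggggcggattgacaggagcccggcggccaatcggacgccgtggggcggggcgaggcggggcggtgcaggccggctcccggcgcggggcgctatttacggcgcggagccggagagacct
HAMP and BAMBI thus both held GGCGCC, and they moved in opposite directions under each treatment alone.

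Promoter windows of 300 bases, from 250 before the start to 50 after it, were matched for 8 members, and TFR2 and TMPRSS6 had none in the table used. GGCGCC, which reads the same on both strands, was in the windows of 2 of the 8 members. By window it was in 2 of the members' 10 windows and in 19.22% of all 35097 windows, shares near each other. The SMAD box GTCTAG, on either strand, was in the windows of SMAD6 (as GTCTAG at -12 to -7 and CTAGAC at -10 to -5, which overlap) and ID1 (as CTAGAC at -138 to -133), and in 5.88% of all windows. TTCNNNGAA was in the windows of HAMP and of ID3 (TTCTTTGAA at -181 to -173), and in 7.66% of all windows. The SMAD box and TTCNNNGAA were each in 2 of the 10 member windows. The E-box CACGTG and the seed complement CACCTGT were in 0 member windows and in 7.25% and 4.12% of all windows. Motif matches describe these letters in these windows only.

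**Figure D2:**
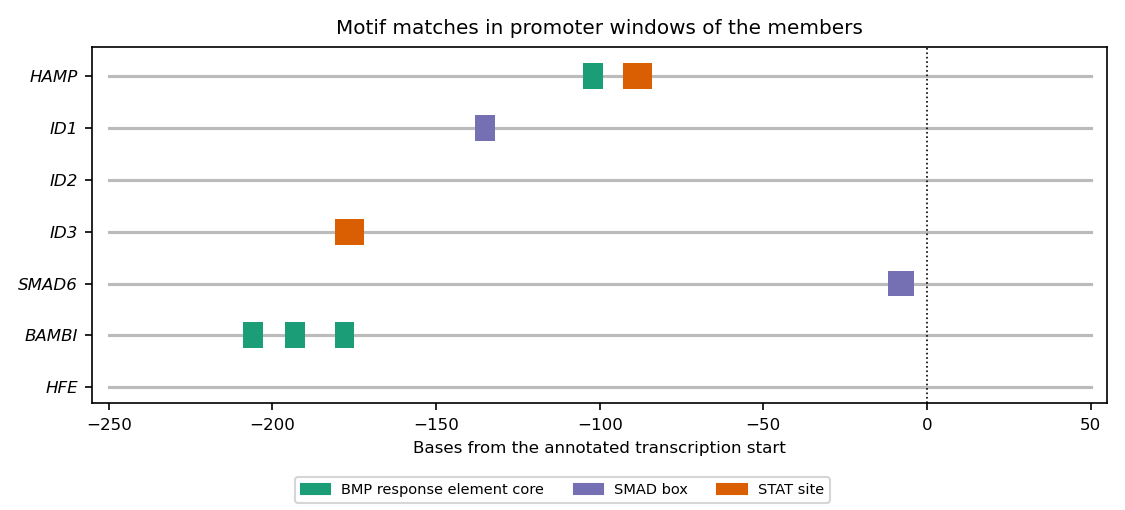
Matches to GGCGCC (BMP response element core), GTCTAG (SMAD box) and TTCNNNGAA (STAT site) along the promoter windows of 7 members, with the axis giving bases from the annotated transcription start; SMAD7, whose 3 windows held none of these motifs, is not drawn. HAMP carries 1 GGCGCC and 1 STAT match, BAMBI carries 3 GGCGCC matches, and ID2 and HFE carry none.

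ID1, ID2 and ID3 encode inhibitors of DNA binding, small proteins that block basic helix-loop-helix factors, and they are common readouts of BMP-SMAD signalling. ID3 (chromosome 1 from 23557918 to 23559794, minus strand) stood at 13.0 and 10.3 CPM in NC, 51.7 and 48.7 with the mimic alone, 59.7 and 65.9 with the siRNA alone and 54.1 and 59.7 with both. The NC libraries were apart from the other 6, and the 2 importin8 siRNA groups met at 59.7 CPM. The mimic raised ID3 by 2.11 on the log2 scale with control siRNA (SE 0.11, edgeR adjusted p = 1.5e-07). Its effect with importin8 siRNA was -0.14 (SE 0.10, edgeR adjusted p = 0.31), and the difference between both effects was -2.25 (SE 0.15, edgeR adjusted p = 4.9e-06). The importin8 siRNA raised ID3 by 2.43 with control mimic (SE 0.11, edgeR adjusted p = 1.8e-07), and its effect with the mimic was 0.18 (SE 0.10, edgeR adjusted p = 0.2). ID3 kept these calls under each alternative tried.

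ID1 (chromosome 20 from 31605283 to 31606515, plus strand) stood at 76.3 and 64.8 CPM in NC, 112 and 114.5 with the mimic alone, 196 and 243 with the siRNA alone and 163 and 179 with both. Libraries of the 4 groups did not overlap, in the order NC, miR-552-3p, siIPO8-miR-552-3p and siIPO8-NC. Relative to NC, ID1 rose by 0.68 with the mimic (SE 0.12, edgeR adjusted p = 0.00089) and by 1.64 with the importin8 siRNA (SE 0.12, edgeR adjusted p = 7.3e-06). With importin8 siRNA the mimic lowered ID1 by a log2 fold change of -0.36 (SE 0.11, edgeR adjusted p = 0.038), and the difference between the mimic effects was -1.045 (SE 0.16, edgeR adjusted p = 0.0014). The call of that fall was lost without either miR-552-3p library (adjusted p = 0.065 and 0.063), without siIPO8-NC replicate 2 (log2 fold change -0.20, adjusted p = 0.25) and without either siIPO8-miR-552-3p library (0.22 and 0.076). It was also lost with only the groups compared in the fit (0.12). Among mimic libraries the importin8 siRNA raised ID1 by 0.59 (SE 0.11, edgeR adjusted p = 0.0039).

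ID2 (chromosome 2 from 8678845 to 8684453, plus strand) followed another order. It stood at 119 and 88.9 CPM in NC, 203 and 212 with the mimic alone, 202 and 220 with the siRNA alone and 285 and 272 with both. The groups with 1 active treatment overlapped, and the libraries with both treatments were the highest. ID2 rose by 1.00 with the mimic (SE 0.12, edgeR adjusted p = 0.00011) and by 1.02 with the importin8 siRNA (SE 0.12, edgeR adjusted p = 0.00016), each against NC. Within the importin8 siRNA libraries the mimic raised it by 0.40 (SE 0.12, edgeR adjusted p = 0.032), and within the mimic libraries the siRNA raised it by 0.42 (SE 0.12, edgeR adjusted p = 0.024). The first of these was lost in the 6 fits that left out a library of miR-552-3p, siIPO8-NC or siIPO8-miR-552-3p (adjusted p from 0.053 to 0.16), and the second in the 4 that left out a library of either mimic group (0.063 to 0.13). The difference between the mimic effects on ID2 was -0.60 (SE 0.17, edgeR adjusted p = 0.027), with a positive mimic effect in both arms. It was lost without either miR-552-3p library (0.063 and 0.084), without siIPO8-NC replicate 2 (0.085) and without either siIPO8-miR-552-3p library (0.057 and 0.084).

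SMAD6 and SMAD7 are the inhibitory SMADs, which compete with the signal-carrying SMADs and block the receptors. SMAD6 (chromosome 15 from 66702228 to 66782848, plus strand) stood at 5.68 and 7.05 CPM in NC, 9.66 and 9.07 with the mimic alone, 6.56 and 7.18 with the siRNA alone and 6.01 and 7.06 with both. Only the miR-552-3p libraries were apart, above the other 6, which overlapped. The mimic with control siRNA raised SMAD6 by 0.56 (SE 0.16, edgeR adjusted p = 0.011), a call lost with DESeq2 (adjusted p = 0.08), without NC replicate 1 (0.077) and without miR-552-3p replicate 1 (0.06). The mimic effect with importin8 siRNA was -0.07 (SE 0.16, edgeR adjusted p = 0.78), and the siRNA effect with control mimic was 0.11 (SE 0.16, edgeR adjusted p = 0.6). The difference between the mimic effects on SMAD6 was -0.63 (SE 0.22) and missed the threshold (edgeR adjusted p = 0.055); without NC replicate 2 it was -0.79 and passed (0.032), as it did with limma-voom (0.049). Among mimic libraries the siRNA lowered SMAD6, with a log2 fold change of -0.52 (SE 0.16, edgeR adjusted p = 0.027). DESeq2 did not call it (0.17), nor did fits without either library of miR-552-3p (0.13 and 0.073) or of siIPO8-miR-552-3p (0.18 and 0.053).

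SMAD7 (chromosome 18 from 48919853 to 48952052, minus strand) stood at 26.9 and 27.5 CPM in NC, 21.6 and 21.5 with the mimic alone, 27.5 and 29.5 with the siRNA alone and 22.4 and 24.5 with both. Libraries with the mimic were below those without it in either arm. The log2 fold change with the mimic was -0.33 with control siRNA (SE 0.08, edgeR adjusted p = 0.0051) and -0.28 with importin8 siRNA (SE 0.08, edgeR adjusted p = 0.024). DESeq2 called neither (adjusted p = 0.057 and 0.21), and the second was lost without siIPO8-NC replicate 2 (0.16) and without either siIPO8-miR-552-3p library (0.19 and 0.052). The difference between the mimic effects on SMAD7 was 0.055 (SE 0.11, edgeR adjusted p = 0.77). The importin8 siRNA effect was 0.07 with control mimic (SE 0.08, edgeR adjusted p = 0.52) and 0.12 with the mimic (SE 0.08, edgeR adjusted p = 0.29).

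BAMBI encodes a membrane protein that resembles a type I receptor without its kinase and dampens BMP and TGF-beta signals. The gene (chromosome 10 from 28677342 to 28682939, plus strand) stood at 31.5 and 31.0 CPM in NC, 9.42 and 11.5 with the mimic alone, 12.4 and 14.5 with the siRNA alone and 10.1 and 12.5 with both. NC was far above the other 3 groups, whose libraries lay between 9.42 and 14.5 CPM. BAMBI fell by 1.58 on the log2 scale with the mimic (SE 0.13, edgeR adjusted p = 4e-06) and by 1.22 with the importin8 siRNA (SE 0.13, edgeR adjusted p = 4.1e-05), each against NC. The mimic effect with importin8 siRNA was -0.25 (SE 0.14, edgeR adjusted p = 0.2), and the difference between the mimic effects was 1.325 (SE 0.19, edgeR adjusted p = 6e-04). BAMBI thus fell in both comparisons with NC in which HAMP, ID1, ID2 and ID3 rose.

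TFR2 and HFE act upstream of HAMP, and TMPRSS6 acts against it. TFR2, transferrin receptor 2 (chromosome 7 from 100620416 to 100642779, minus strand), stood at 94.5 and 92.2 CPM in NC, 13.3 and 11.96 with the mimic alone, 70.2 and 63.5 with the siRNA alone and 30.7 and 28.4 with both. The 4 groups did not overlap, and miR-552-3p was the lowest at 13.5% of the NC mean. TFR2 fell by 2.88 with the mimic and control siRNA (SE 0.09, edgeR adjusted p = 3.6e-09), a 7.38-fold fall, and by 1.18 with the mimic and importin8 siRNA (SE 0.08, edgeR adjusted p = 7e-06). The difference between both mimic effects was 1.71 (SE 0.12, edgeR adjusted p = 5.7e-06). Against NC the importin8 siRNA alone lowered TFR2 by a log2 fold change of -0.48 (SE 0.08, edgeR adjusted p = 0.00046), and within the mimic libraries it raised TFR2, by 1.225 (SE 0.09, edgeR adjusted p = 6.9e-06). The siRNA effect on TFR2 thus had opposite signs with control mimic and with the mimic. Each TFR2 call held under every alternative tried.

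TMPRSS6, which encodes matriptase-2 (chromosome 22 from 37065436 to 37109713, minus strand), had the same order of groups at a lower level. It stood at 6.84 and 6.26 CPM in NC, 0.869 and 1.365 with the mimic alone, 4.75 and 5.26 with the siRNA alone and 1.92 and 2.42 with both. The mimic lowered it by a log2 fold change of -2.55 with control siRNA (SE 0.25, edgeR adjusted p = 1.2e-05) and of -1.20 with importin8 siRNA (SE 0.24, edgeR adjusted p = 0.0036). The difference was 1.34 (SE 0.34, edgeR adjusted p = 0.014), a call lost with DESeq2 (0.075), without miR-552-3p replicate 1 (0.057), without siIPO8-NC replicate 1 (0.052) and without siIPO8-miR-552-3p replicate 2 (0.065). The importin8 siRNA effect was -0.39 with control mimic (SE 0.22, edgeR adjusted p = 0.18). Among mimic libraries the siRNA raised TMPRSS6 by 0.96 (SE 0.27, edgeR adjusted p = 0.019), a call lost with DESeq2 (0.1), with only the groups compared (0.06), without miR-552-3p replicate 1 (0.13) and without siIPO8-miR-552-3p replicate 2 (0.12).

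HFE encodes the hemochromatosis protein, a partner of transferrin receptors (chromosome 6 from 26087281 to 26098343, plus strand). Its transcript stood at 24.3 and 24.9 CPM in NC, 21.2 and 20.8 with the mimic alone, 11.3 and 10.1 with the siRNA alone and 10.8 and 10.99 with both. The 4 libraries with importin8 siRNA were below the other 4 and overlapped each other. The siRNA lowered HFE by a log2 fold change of -1.20 with control mimic (SE 0.09, edgeR adjusted p = 4.3e-06) and of -0.95 with the mimic (SE 0.09, edgeR adjusted p = 4.1e-05). The mimic effect was small. With control siRNA the log2 fold change was -0.23 (SE 0.09, edgeR adjusted p = 0.044), and the call was lost in 10 of 18 alternatives. These included leaving out either library of NC (0.081 and 0.14), of miR-552-3p (0.12 and 0.16) or of siIPO8-miR-552-3p (0.073 and 0.071), leaving out siIPO8-NC replicate 2 (0.05), and DESeq2 (0.29). With importin8 siRNA the mimic effect on HFE was 0.02 (SE 0.10, edgeR adjusted p = 0.88). HFE was the member whose 3′ UTR held the seed match printed above.

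**Figure D3:**
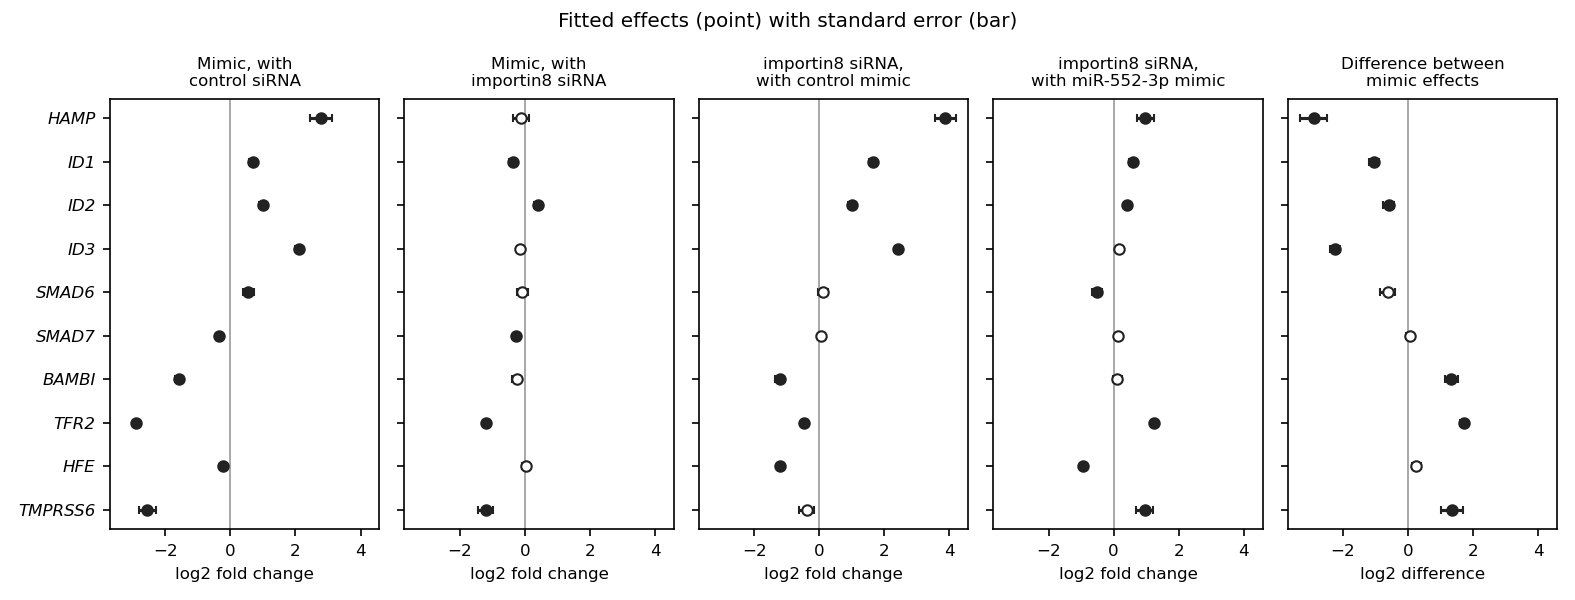
Fitted log2 fold change of each member in the 4 comparisons and the log2 difference between the mimic effects, with bars of 1 standard error; filled points passed an adjusted p under 0.05. In the second panel the mimic effects on HAMP (-0.11) and ID3 (-0.14) lie near 0, whereas those on TFR2 (-1.18) and TMPRSS6 (-1.20) stay negative.

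Levels can be compared between genes on the scale per transcript length, the FPKM of the deposited table. In NC the ID genes ID2 (79.3 ± 13.4 FPKM) and ID1 (72.2 ± 6.47) led the members and did not differ from each other beyond their spread, followed by TFR2 at 33.4 ± 0.149 and BAMBI at 18.8 ± 0.446. HAMP had 4.99 and 1.9 FPKM in NC, a range that held the TMPRSS6 mean of 2.35. In siIPO8-NC, HAMP reached 51.4 ± 2.12 FPKM, level with ID3 at 51.5 ± 3.88 and below ID2 at 159 ± 11.1 and ID1 at 223 ± 36.2. TFR2 was above HAMP in NC and below it in the other 3 groups, at 4.33 ± 0.424 FPKM in miR-552-3p against 23.6 ± 0.424 for HAMP (SD, n = 2 throughout).

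Across the 8 libraries, which share 4 treatment groups, the log2 CPM of HAMP followed that of ID3 most closely among the members (Pearson r = 0.978), then ID2 (0.948) and ID1 (0.932). It ran against BAMBI (-0.857) and HFE (-0.837), and it was weakly related to TFR2 (-0.434), TMPRSS6 (-0.425), SMAD7 (-0.215) and SMAD6 (0.142). Among 10858 genes with a mean of at least 100 counts, the 5 most like HAMP were PARP2 (0.9952), HES1 (0.9943), RNH1 (0.9941), GBA2 (0.9936) and COMMD10 (0.9917). These r values describe 8 points that mostly separate NC from the rest. HES1, a basic helix-loop-helix repressor, had means of 14.8 CPM in NC, 25.3 with the mimic alone, 31.3 with the siRNA alone and 30.1 with both.

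Other genes of the pathway are given by list, and each count is read against all genes tested: 28.9% called higher and 29.5% lower for the mimic with control siRNA, and 25.4% and 21.6% for the importin8 siRNA with control mimic. Of 7 tested ligand genes the mimic called 5 (4 higher and 1 lower) and the siRNA called 3 higher, with 4 not called. The list held GDF15, INHBB and INHBE besides BMP genes. INHBB, BMP6 and GDF15 were among those higher with the mimic, and GDF15, INHBB and BMP4 were the 3 higher with the siRNA. BMP6, the main ligand for hepcidin in the liver, stood at 1.09 and 0.408 CPM in NC, 7.42 and 8.45 with the mimic alone, 0.873 and 0.701 with the siRNA alone and 2.635 and 1.91 with both. Libraries with the mimic were above those without it. With the siRNA alone BMP6 lay within the range of the NC libraries. BMP4 had means of 57.0 CPM in NC, 40.6 with the mimic alone, 85.4 with the siRNA alone and 46.0 with both. The siRNA with control mimic raised BMP4 by 0.58 on the log2 scale (SE 0.084, edgeR adjusted p = 0.00029). With importin8 siRNA the mimic effect on BMP4 was -0.89 (SE 0.085, edgeR adjusted p = 5.5e-05). The log2 fold change of BMP6 with the mimic was 3.42 with control siRNA (SE 0.38, edgeR adjusted p = 3.3e-05), 4.31 without NC replicate 1 and 2.87 without NC replicate 2. With importin8 siRNA it was 1.52 (SE 0.39, edgeR adjusted p = 0.015), a call lost without either siIPO8-NC library and without siIPO8-miR-552-3p replicate 1 (adjusted p up to 0.1, log2 fold change from 1.28 to 1.75 over the alternatives).

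INHBB, a subunit of activin B, which can also act through these receptors, was raised by the mimic in both arms, by 4.22 with control siRNA (SE 0.19, edgeR adjusted p = 4.8e-08) and 2.26 where importin8 siRNA was present (SE 0.17, edgeR adjusted p = 1.2e-05). Against NC the importin8 siRNA raised INHBB by 1.47 (SE 0.22, edgeR adjusted p = 0.00035) and GDF15, a stress-induced cytokine, by 1.59. The mean of INHBB was 0.820 ± 0.0788 CPM in NC, 15.4 ± 1.98 with the mimic alone, 2.30 ± 0.313 with the siRNA alone and 11.01 ± 0.665 with both.

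Receptor genes moved in both directions. With control siRNA the mimic raised 4 and lowered 4 of 10 tested, among them ACVR1, a type I receptor, at 1.33 and the co-receptor NEO1 at -1.20 (log2 fold changes). The importin8 siRNA with control mimic raised 3 and lowered 4, with the co-receptor ENG at 2.29 and the type II receptor BMPR2 at -1.60. BMPR2 stood at 56.8 and 58.9 CPM in NC, 56.1 and 58.0 with the mimic alone, 18.4 and 19.7 with the siRNA alone and 25.25 and 26.3 with both, so that it was lower in the 4 libraries with the siRNA. HJV, which encodes hemojuvelin, was not tested, with 0 and 0 counts in NC, 0 and 1 with the mimic alone, 5 and 7 with the siRNA alone and 5 and 2 with both.

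The 12 genes for SMADs and their partners held both carriers of the signal and genes that restrain it, such as SMURF2 and SKI. The mimic with control siRNA raised 8 and lowered 2 of the 12, where 28.9% of all genes were called higher and 29.5% lower. Their median log2 fold change was 0.61, and these counts mix both kinds of gene. SMURF2, a ubiquitin ligase that restrains the pathway, rose by 1.73, and SMAD4 rose by 0.69. SMAD3, not among the BMP-activated SMADs named above, rose by 1.38, whereas the co-repressor SKI had -1.45. The importin8 siRNA with control mimic raised 7 and lowered 1 (25.4% and 21.6% of all genes), and SMAD1, a carrier of the BMP signal, rose by 1.47 (SE 0.12, edgeR adjusted p = 6.6e-06). SMAD1 stood at 5.73 ± 0.0757 CPM in NC, 8.40 ± 0.316 with the mimic alone, 15.9 ± 0.976 with the siRNA alone and 11.9 ± 1.07 with both, an order of groups that ID1 shared.

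Secreted antagonists were represented by 5 tested genes, of which the mimic with control siRNA raised 2 and lowered 2 and the importin8 siRNA raised 1 and lowered 1. FSTL3, a follistatin-like binder of activins, stood at 135 and 126 CPM in NC, 12.6 and 13.8 with the mimic alone, 14.9 and 13.99 with the siRNA alone and 8.97 and 9.635 with both. Its log2 fold changes were -3.31 with the mimic (SE 0.08, edgeR adjusted p = 1.4e-09) and -3.18 with the siRNA (SE 0.08, edgeR adjusted p = 7e-09), each against NC. Like BAMBI, FSTL3 had NC far above the other 3 groups.

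Among 6 other BMP targets tested, the mimic with control siRNA raised 2 and the importin8 siRNA with control mimic raised 4. The other 4 and 2 were not called. Those raised by the siRNA included SMAD9, which was also counted among the SMAD genes above, and GATA2. The GATA2 call was lost in 8 of 18 alternatives. These included DESeq2, upper quartile scaling, library size only, fitting only the groups compared, and leaving out NC replicate 1 or either siIPO8-NC library. Its log2 fold change ranged from 0.25 (without NC replicate 1) to 0.76 (without NC replicate 2) over the alternatives. HEY1, a transcriptional repressor induced by Notch and BMP signals, stood at 1.96 ± 0.225 CPM in NC, 13.1 ± 0.849 with the mimic alone, 6.30 ± 0.592 with the siRNA alone and 4.92 ± 0.291 with both. Its mimic effect was 2.75 with control siRNA and -0.36 with importin8 siRNA (edgeR adjusted p = 0.11), and the difference of -3.10 was called (SE 0.23, edgeR adjusted p = 7.4e-06).

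**Figure D4:**
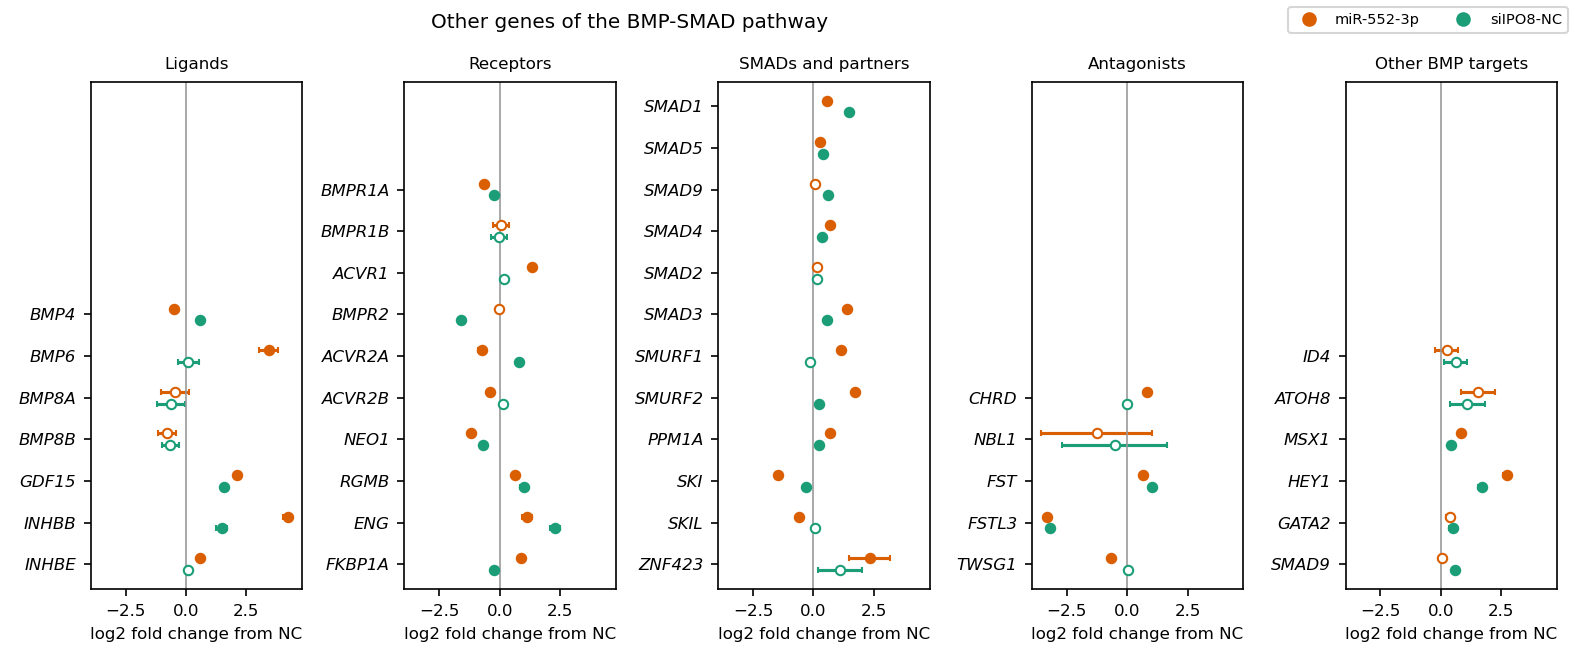
Log2 fold change from NC of the tested ligands, receptors, SMADs and partners, antagonists and other BMP targets in miR-552-3p (orange) and siIPO8-NC (green), with bars of 1 standard error; filled points passed an adjusted p under 0.05, and both series share the NC libraries. FSTL3 lies at -3.31 and -3.18, BMP6 at 3.42 in miR-552-3p with an open point near 0 in siIPO8-NC, and BMPR2 at -1.60 in siIPO8-NC with an open point near 0 in miR-552-3p.

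Of 8 tested genes for proteases and inhibitors that act on hemojuvelin or TMPRSS6, the mimic with control siRNA lowered 5 and raised 2, and the importin8 siRNA with control mimic lowered 4 and raised 2. FURIN, a convertase that releases soluble hemojuvelin, had a mean of 275.9 CPM in NC, 46.0 with the mimic alone, 102 with the siRNA alone and 99.5 with both. The mimic lowered FURIN by a log2 fold change of -2.59 with control siRNA, and the difference between the mimic effects was 2.55 (SE 0.12, edgeR adjusted p = 6.9e-07). TFR2 and TMPRSS6 showed the same sign of difference.

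Of 16 tested genes of the interleukin 6 arm and the acute phase, the mimic raised 8 and lowered 6 with control siRNA (28.9% and 29.5% of all genes), and the importin8 siRNA raised 8 and lowered 6 with control mimic (25.4% and 21.6%). The receptor gene IL6R rose by 1.02 and 1.11 in these comparisons, and SOCS3, a feedback target of STAT3, by 2.76 and 2.06. SOCS3 had a difference between mimic effects of -2.61 (SE 0.44, edgeR adjusted p = 0.0015), the sign found for HAMP. FGA and FGB, the fibrinogen chains of the acute phase, rose by 2.645 and 3.25 with the mimic and by 3.665 and 2.68 with the siRNA, whereas STAT3 itself fell, with -0.51 and -0.38. Other acute phase genes fell too: SERPINA3, a protease inhibitor, had a mean of 1755 CPM in NC, 778 with the mimic alone and 312.8 with the siRNA alone, and A2M, another protease inhibitor, had 13140, 3302 and 5352 CPM. SAA1 and SAA2 were also called lower in both comparisons, from at most 1.31 CPM on average in NC. HP, an acute phase gene, was called lower with the mimic. JAK2, a gene of the interleukin 6 arm, was called lower with the siRNA. The list thus held genes that moved with HAMP and genes that moved against it.

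Transcription factors known to act on HAMP were called higher for 3 and lower for 6 of 10 with the mimic and control siRNA, and higher for 5 and lower for 3 with the importin8 siRNA and control mimic. CREB3L3, a liver factor of the stress response, had a mean of 86.7 CPM in NC, 5.825 with the mimic alone, 35.0 with the siRNA alone and 12.5 with both, the order of groups of TFR2 and TMPRSS6. CEBPB, an activator of HAMP and of acute phase genes, rose by 1.98 with the mimic and by 0.89 with the siRNA. CEBPA had -1.50 with the mimic and control siRNA and -0.74 with the mimic and importin8 siRNA.

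Of 10 iron-handling genes the mimic with control siRNA raised 5 and lowered 3, where 28.9% of all genes were called higher and 29.5% lower. The importin8 siRNA with control mimic raised 7 and lowered 1, against 25.4% and 21.6%. SLC40A1 encodes ferroportin, the protein that hepcidin removes. Its transcript had a mean of 20.5 CPM in NC, 102.8 with the mimic alone, 45.1 with the siRNA alone and 40.4 with both, and the mimic raised it by 2.32 with control siRNA (SE 0.08, edgeR adjusted p = 5.9e-09). The difference between the mimic effects on SLC40A1 was -2.48 (SE 0.11, edgeR adjusted p = 5.6e-07). FTL, the ferritin light chain, rose by 1.68 with the mimic and control siRNA and had a difference of -1.24.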

How the data were processed

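Poly(A) RNA of 8 HepG2 libraries was sequenced as single-end reads of 50 bases, per the labels' protocols. Per the file headers, the deposited table gives a read count and an expression value per gene and library. The read counts are mostly not whole numbers (10.73 to 12.09% of those above 0 were whole within 1e-06) and were taken as the authors' expected counts. The expression value behaves as FPKM, since the gene length it implies had a median of 2.569 kb and varied between libraries by a median ratio of 1.06 over 6713 genes. The deposited FPKM served only to compare levels between genes. The submitters' processing notes name HISAT2 2.0.4, Bowtie2 2.2.5, RSEM 1.2.8 and GRCh38.p12, with no role stated. Abbreviated column names were read against the sample titles (NC51 and SI51, for example, as mimic libraries). A table of 4 libraries repeats the values (0 differing cells) and was not used, and 0 columns of per-sample values stayed unread. Expected counts share reads among similar genes, so paralogs and overlapping or antisense genes are uncertain; no source used here gives the use of strand.

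The counts were rounded, filtered with filterByExpr (17715 genes kept), scaled by TMM (factors 0.961 to 1.06) and fitted over all 8 libraries with 1 mean per group in edgeR 4.0.16 (R 4.3.3, quasi-likelihood F test, robust, Benjamini-Hochberg over all genes tested, called under 0.05). Each SE, derived from the F statistic, is approximate. A count of 3 corresponds to 0.131 to 0.144 CPM. Alternatives were DESeq2 1.42.0, limma 3.58.1 with voom, other scalings and filters, and fits of only the groups compared. Further ones were a replicate block, library sizes without the largest gene, and leaving out each library. Library sizes without the largest gene gave the same counts of called genes as the main fit in every comparison. TMM scaling follows that step and can offset it, so that alternative is no separate check. Replicates differed beyond counting noise.

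The members and gene lists were chosen with earlier results of these data known. Named were all members, IPO8, up to 3 called genes per list and comparison with the largest change, at least 20 counts on average and separated libraries, and the 5 genes most like HAMP; SMAD4, IL6R, STAT3, HJV, SAA1, SAA2, A2M, HP and some further values of named genes were chosen after they were seen. Promoters and the miRNA come from RefSeq, and 3′ UTRs and positions from GENCODE 29.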

Additional observations from a re-analysis of the deposited data

Results flagged for a closer look

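For 7 of the 10 members the mimic effect differed between the importin8 siRNA arm and the control siRNA arm, by the test of the difference itself (edgeR quasi-likelihood test, adjusted over all genes), where 14.2% of all genes were called positive and 17.1% negative. The log2 difference, importin8 siRNA minus control siRNA, was -2.899 for HAMP, where both mimic libraries were above both controls with control siRNA and overlapped them with importin8 siRNA. It was -1.045 for ID1, -0.597 for ID2 and -2.25 for ID3. It was 1.325 for BAMBI, 1.707 for TFR2 and 1.344 for TMPRSS6, all of which fell with the mimic and control siRNA. Of these, the calls of ID2 and TMPRSS6 depended on single libraries, as given with their values above.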

How the results depend on the processing

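Over 890 combinations of a member, a comparison and an alternative, 819 kept direction and call status, 60 lost the call, 3 gained it and 8 changed sign. The 819 include values called in neither fit. They also include the alternative without the largest gene, which gave the main calls throughout. When single libraries were left out, the count of members called ranged from 2 to 5 for the mimic with importin8 siRNA and from 3 to 7 for the siRNA with the mimic. The HAMP log2 fold change ranged from -0.278 to 0.068 in the first comparison and from 0.795 to 1.14 in the second, where no filter gave 0.984 (edgeR adjusted p = 0.062) and the replicate block 0.977 (0.058). With the replicate block SMAD6 gained a call for the difference (-0.64, adjusted p = 0.044) and ID1 lost one with importin8 siRNA (0.052). The sign changes were in values not called in the main comparison. Leaving out a library, SMAD6 ranged from -0.181 to 0.051 for the mimic with importin8 siRNA and from -0.048 to 0.278 for the siRNA with control mimic. HFE ranged from -0.053 to 0.107 for the mimic with importin8 siRNA, with -0.047 under library size only. BAMBI ranged from -0.05 to 0.267 for the siRNA with the mimic (-0.029 without miR-552-3p replicate 1), and SMAD7 from -0.009 to 0.117 for the difference. The cause was not tested. Of all genes, 5607 were called for the mimic with importin8 siRNA, 3545 without siIPO8-NC replicate 2 and 3551 without siIPO8-miR-552-3p replicate 1; 47.2% of the calls were higher, and 36.7% with library size only. With 2 libraries a group and 24 HAMP counts in an NC library, the HAMP changes that use NC had SEs of 0.32 to 0.42.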
